A study of Homo sapiens with 30 samples.

Results

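LGALS17A and KLHDC7B are genes in the RNA-seq tables of a study that kept glioblastoma cell lines under interferon gamma (IFN-γ) for weeks. They were chosen by their large rise in mean TPM over Untreated cells in these same tables, so their levels against those cells are described here without a test. LGALS17A is a long noncoding RNA gene in the galectin cluster of chromosome 19, and KLHDC7B on chromosome 22 encodes a kelch domain protein. The study asked how sustained IFN-γ and its removal shape the expression of glioblastoma cells.

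The lines were U87-MG (U87) and U251-MG (U251), each with 5 groups of 3 samples, 30 samples in all. Untreated cells received no IFN-γ. D3, D14 and D28 cells were collected after 3, 14 and 28 days of IFN-γ, and D28WO cells had 14 days of IFN-γ and then 14 days without it. All were labelled wild type and grown in the same serum-containing medium. The labels gave the dose as 1 μg/mL in the protocol and as 1 μL/mL in the treatment field, and called the Untreated cells day 3, whereas the study's design places them at day 0. The paper states a lower dose than the protocol label. The U87 table held 2 columns with the same name, which could not be assigned to a sample, so U87 D3 and U87 D14 had n = 2 and every other group had n = 3. The paper describes the replicates as independent culture preparations. It reports no new authentication of the lines, and both are on lists of commonly misidentified lines.

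Expression was taken as TPM, a length-scaled transcript level, and summed to 1000000 in every library. The names of the tables say TPM, but the study's own metadata call them CPM, a scale without length correction, and how the values were computed was not stated. The paper states only a minimum depth. The tables give no read totals, so the depth of each library was unknown and a gene listed at 0 may have been present below detection. The U87 libraries listed between 24223 and 28649 genes above 0, and the Untreated libraries, with 24223 to 25459, had fewer than any treated library of that line. The U251 libraries listed between 24450 and 30246. Those of D28 listed 28955 to 30246 and those of D28WO 25633 to 26378, without overlap. The lines were processed as separate tables, and no test compared them.

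Markers of the labelled cell type were present in part. VIM, an intermediate filament of mesenchymal and glial cells, lay between 984 and 1459 TPM in U87 and between 599 and 1161 TPM in U251. The neural stem cell factor SOX2 lay between 105 and 176 TPM in U251 but did not exceed 0.411 TPM in U87, and the astrocyte filament GFAP lay between 222 and 1309 TPM in U251 and between 2.33 and 19.1 TPM in U87. S100B and PDGFRA were also higher in U251 (31.7 to 198.7 and 25.9 to 221 TPM) than in U87 (0.387 to 3.39 and 1.71 to 5.70 TPM), whereas the oligodendrocyte factor OLIG2 lay between 3.51 and 32.0 TPM in U87 and did not exceed 1.33 TPM in U251. CD44, NES and EGFR were at or above 19.7 TPM in each library. The summed TPM of these 9 markers moved with the groups in U251, from 4017 to 4100 in Untreated to 1605 to 1925 in D3, 2773 to 3182 in D14, 1740 to 1952 in D28 and 2298 to 2360 in D28WO. In U87 it was 2012 to 2233, 1840 to 1882, 1913 to 2012, 1886 to 2032 and 1588 to 1746 in that order, and the part of these shifts in the results was not tested. Of the 6 leukocyte markers, CD68, a lysosomal protein, was the most abundant in each library, while PTPRC, AIF1, CD3E, NKG7 and LYZ did not exceed 3.21 TPM in any library. The 3 eosinophil markers CLC, EPX and PRG2 summed to at most 1.23 TPM, and of the 3 epithelial markers KRT8 lay between 24.5 and 68.0 TPM, EPCAM reached 9.29 TPM in U87 and CDH1 stayed at or below 2.20 TPM. The epithelial markers summed to 64.0 to 68.3 TPM in Untreated U251 and to at most 44.3 TPM in its treated libraries.

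Libraries of several groups went in part against their labels in the level of interferon genes. The paper describes an attenuated U87 interferon response at D14 and its return at D28 with and without IFN-γ. For its own gene panel in U251, it describes a response that lasted through every time and was only partly reduced after washout. It also reports that a phosphoprotein of the pathway went back toward its baseline level after washout in both lines. The summed TPM of 21 IFN-γ target genes averaged 1191 (range 1178 to 1216) in Untreated U87 and 1185 (1153 to 1218) in U87 D14, although the D14 cells were labelled as 14 days in IFN-γ. The median of log2(TPM + 1) over the 21 genes, which a few abundant genes do not set, was higher in U87 D14 (4.27 to 4.28) than in Untreated (3.43 to 3.71). In U87 D28WO, labelled as 14 days without IFN-γ, the sum averaged 4140.05 (4017 to 4226), next to 3899 (3584 to 4063) in D28. In U251 the sum averaged 630.4 (623 to 640) in Untreated, 5900 (5356 to 6613) in D3 and 1499 (1452 to 1524) in D14. It averaged 6715 (6664 to 6756) in D28 and 5768 (5682 to 5815) in D28WO. D14 of U251 was thus above Untreated but far below D3 and D28 in these 21 genes. D28WO of U251 was within the D3 range, and each of its libraries lay below each D28 library. The summed TPM of the type I interferon-stimulated genes, listed below, was also lower in U87 D28WO (1011 to 1054) than in U87 D28 (1109 to 1196). In U251 these sums overlapped, at 3375 to 4010 in D28WO and 3558 to 3805 in D28. The groups are named by their labels throughout, fits without the D14 or the D28WO libraries are given beside the tests of the 2 genes, and the reason for the D14 and D28WO levels was not tested.

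IFN-γ binds a receptor of IFNGR1 and IFNGR2 chains that activates the kinases JAK1 and JAK2, and the signal then reaches early target genes with GAS elements in their promoters. One of these targets is the transcription factor IRF1, which binds ISRE elements and extends the response to guanylate-binding proteins, chemokines and antigen presentation genes. Galectins are proteins that bind β-galactosides, and the chromosome 19 cluster holds several that are best known from placenta, among them LGALS13, LGALS14 and LGALS16. LGALS17A is annotated there as a noncoding relative, and KLHDC7B belongs to a family named after the kelch repeat, a fold often used to bind other proteins.

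Promoters are shown for KLHDC7B, for the GAS-bearing start of its divergent transcript KLHDC7B-DT, for GBP4, a guanylate-binding protein whose pattern was close to that of KLHDC7B, and for LGALS9, a galectin induced by interferon. They come from RefSeq on GRCh38.p14, each with 300 bases around the start site. The promoter set used here held no entry under the names LGALS17A, GBP1P1, IDO1, GJD3, USP30-AS1 or ETV7. The windows are chr22:50545649-50545948 on the plus strand for KLHDC7B, chr22:50544270-50544569 on the minus strand for KLHDC7B-DT, chr1:89198893-89199192 on the minus strand for GBP4 and chr17:27630938-27631237 on the plus strand for LGALS9. The GAS motif TTCNNNGAA and the ISRE core GAAANNGAAA were searched on both strands, and capitals mark a match.
KLHDC7B: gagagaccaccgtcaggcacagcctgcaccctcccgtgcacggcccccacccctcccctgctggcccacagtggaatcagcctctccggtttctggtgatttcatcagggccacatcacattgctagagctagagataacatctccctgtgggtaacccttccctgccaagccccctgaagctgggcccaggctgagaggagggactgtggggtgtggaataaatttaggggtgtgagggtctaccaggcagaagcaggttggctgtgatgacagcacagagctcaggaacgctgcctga
KLHDC7B-DT: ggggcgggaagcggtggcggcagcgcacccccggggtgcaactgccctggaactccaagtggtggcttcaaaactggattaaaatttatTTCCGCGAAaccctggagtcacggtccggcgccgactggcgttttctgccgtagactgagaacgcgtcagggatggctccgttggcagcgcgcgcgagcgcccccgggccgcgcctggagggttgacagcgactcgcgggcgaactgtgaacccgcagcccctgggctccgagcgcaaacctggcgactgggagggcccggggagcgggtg
GBP4: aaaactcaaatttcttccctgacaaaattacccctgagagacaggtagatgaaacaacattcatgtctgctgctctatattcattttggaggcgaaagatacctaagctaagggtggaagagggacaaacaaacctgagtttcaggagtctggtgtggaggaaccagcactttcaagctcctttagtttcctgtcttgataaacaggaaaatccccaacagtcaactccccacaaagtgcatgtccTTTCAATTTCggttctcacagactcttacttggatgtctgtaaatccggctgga
LGALS9: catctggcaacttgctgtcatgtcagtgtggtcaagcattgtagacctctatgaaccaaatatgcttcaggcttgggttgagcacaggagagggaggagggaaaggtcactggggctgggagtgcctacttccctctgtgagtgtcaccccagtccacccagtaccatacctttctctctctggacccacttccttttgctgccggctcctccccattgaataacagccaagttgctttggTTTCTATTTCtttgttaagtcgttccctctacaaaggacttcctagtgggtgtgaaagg
The KLHDC7B window held neither motif. In KLHDC7B-DT, 1 of 3 annotated start sites had a GAS match, beginning 161 bases upstream of the start. The window of that RefSeq start lies outside the GENCODE span of KLHDC7B-DT, chr22:50542305-50542906. The ISRE core began 4 bases upstream of the start in GBP4, running across it, and 9 bases upstream in LGALS9, reaching it. Neither motif was found in C2 and HLA-DOA, also among the 5 genes most like each of the 2, or in LGALS13 and LGALS14 of the chromosome 19 cluster. CXCL10 and IFI27, the third and the fourth most like LGALS17A, held the ISRE core, and IFI27 also the GAS motif. Over all 35116 promoters of this length, 7.66% held the GAS motif and 3.57% the ISRE core. A match describes letters only, and none was tested for binding.

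LGALS17A lies on the plus strand of chr19:39679372-39686373 in GRCh38 (GENCODE 44), with 5 transcripts of 2 to 8 exons. In U87 it was listed at 0 TPM in all 3 Untreated libraries, at 53.7 and 35.3 TPM in D3, at 0.749 and 0 TPM in D14, at 57.6, 55.8 and 68.0 TPM in D28, and at 113, 88.1 and 97.8 TPM in D28WO. The D3, D28 and D28WO libraries were high, the D14 libraries overlapped the Untreated ones, and the D3, D28 and D28WO groups did not overlap one another. In U251 it was listed at 0, 0 and 0.178 TPM in Untreated, at 250.5, 367 and 327 TPM in D3, at 7.21, 3.68 and 9.03 TPM in D14, at 339, 307 and 356 TPM in D28, and at 294, 295 and 313 TPM in D28WO. There the D14 libraries lay above the Untreated ones and far below the other 3 groups, which overlapped in part.

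By group mean, LGALS17A in U87 ran from Untreated at 0 through D14 at 0.375 ± 0.530 TPM (SD, n = 2), D3 at 44.5 ± 13.02 (n = 2) and D28 at 60.5 ± 6.59 (n = 3) to D28WO at 99.6 ± 12.6 TPM (n = 3). In U251 the order was Untreated at 0.0594 ± 0.103, D14 at 6.64 ± 2.72, D28WO at 300.4 ± 10.5, D3 at 315 ± 59.1 and D28 at 334 ± 25.0 TPM (SD, n = 3 each). The ranges of D28WO, D3 and D28 in U251 overlapped between neighbours. No fold is given for U87, where every Untreated library was at 0. On the scale of log2(TPM + 1), D3, D14, D28 and D28WO of U251 differed from Untreated by 8.21, 2.79, 8.31 and 8.16 in that order, ranking 1, 60, 2 and 1 from the top of 23667 genes. In U87 the corresponding ranks were 3, 6461, 3 and 2 of 22918 genes. These comparisons share the Untreated libraries of a line.

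KLHDC7B lies on the plus strand of chr22:50545899-50551023, with 3 transcripts of 1 to 2 exons. In U87 it was at 0.810, 1.02 and 0.436 TPM in Untreated, at 29.7 and 18.5 TPM in D3, at 2.69 and 1.95 TPM in D14, at 30.9, 27.5 and 42.6 TPM in D28, and at 127, 126 and 109 TPM in D28WO. The D28WO libraries stood above all others, D3 and D28 overlapped, and both D14 libraries lay just above the Untreated range. In U251 it was at 0.228, 0.586 and 0.101 TPM in Untreated, at 29.5, 28.7 and 30.7 TPM in D3, at 1.05, 0.807 and 0.967 TPM in D14, at 31.8, 31.5 and 21.4 TPM in D28, and at 17.7, 13.8 and 15.6 TPM in D28WO. In that line D3 and D28 overlapped at the top, D28WO lay below both, and D14 lay above Untreated without overlap.

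KLHDC7B group means in U87 were 0.754 ± 0.294 in Untreated, 2.32 ± 0.524 in D14, 24.1 ± 7.88 in D3, 33.7 ± 7.90 in D28 and 120.7 ± 10.5 TPM in D28WO (SD, n = 2 in D3 and D14, n = 3 otherwise). In U251 they were 0.305 ± 0.252 in Untreated, 0.941 ± 0.123 in D14, 15.7 ± 1.95 in D28WO, 28.2 ± 5.94 in D28 and 29.6 ± 0.974 TPM in D3 (SD, n = 3 each). The mean TPM of D3, D14, D28 and D28WO was 32.0, 3.08, 44.6 and 160.1 times that of Untreated in U87. The corresponding ratios in U251 were 97.2, 3.09, 92.6 and 51.5. They rest on low Untreated levels, and without Untreated replicate 2 they were 180.5, 5.73, 172 and 95.5. By log2 fold change of TPM + 1, KLHDC7B ranked 32, 1828, 17 and 3 of 22918 genes in U87 and 38, 4121, 57 and 57 of 23667 in U251, for D3, D14, D28 and D28WO in that order. KLHDC7B thus had its highest U87 level in D28WO, while in U251 its D28WO level was below its D3 and D28 levels, a difference between lines that was not tested.

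**Figure D1:**
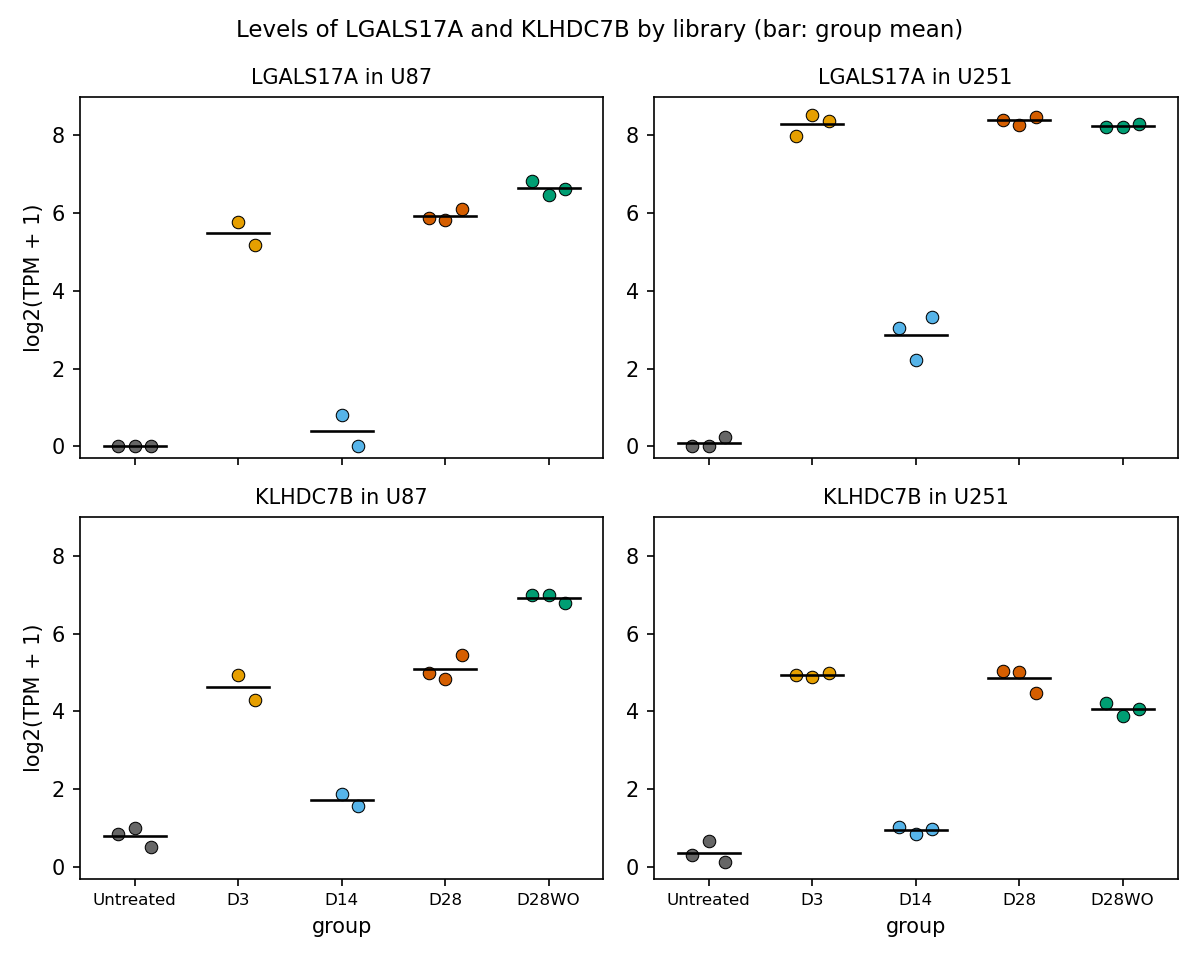
Level of LGALS17A (top) and KLHDC7B (bottom) as log2(TPM + 1) in each library of U87 (left) and U251 (right), by group; points are libraries and bars are group means. Both genes are near 0 in Untreated, high in D3, D28 and D28WO, and low in D14, where LGALS17A in U251 lies between 3.68 and 9.03 TPM.

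D14 was set against the other treated groups without a test, because the high levels of D3, D28 and D28WO are part of the rise by which the genes were chosen. Both genes also passed the filter on low values, a mean of 0.5 TPM, through those groups. On the scale of log2(TPM + 1), D14 minus D3 in U87 was -5.07 for LGALS17A and -2.89 for KLHDC7B, from 2 libraries in each group, and in U251 it was -5.42 and -3.98. D28 minus D14 was 5.53 for LGALS17A and 3.37 for KLHDC7B in U87, and 5.52 and 3.89 in U251. D28WO minus D14 was 6.24 and 5.20 in U87, and 5.37 and 3.10 in U251, for LGALS17A and KLHDC7B in that order.

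D28 against D3 and D28WO against D28 were tested for both genes with limma on log2(TPM + 1), and a call required a log2 fold change beyond 1 in either direction together with adjusted p < 0.05. All 3 groups belong to the rise by which the genes were chosen, so these tests bear on the order among them and not on the rise, and a group with the largest rise may have weighed in the choice. D28 and D3 were not separated by the test for either gene. The log2 fold change of D28 against D3 in U87 was 0.46 for LGALS17A (SE 0.243, adjusted p = 0.633) and 0.48 for KLHDC7B (SE 0.243, adjusted p = 0.611), where 0.0829% of all genes were called in either direction. With 1 library left out it ran from 0.163 to 0.754 for LGALS17A and from 0.152 to 0.803 for KLHDC7B. In U251 it was 0.10 for LGALS17A (SE 0.214, adjusted p = 0.811) and -0.088 for KLHDC7B (SE 0.187, adjusted p = 0.809), where 3.19% were called. Without the D14 libraries the adjusted p of LGALS17A and KLHDC7B was 0.517 and 0.621 in U87 and 0.653 and 0.807 in U251, and without the D28WO libraries 0.748 and 0.744 in U87 and 0.835 and 0.825 in U251. The direction of these U251 values turned when 1 library was left out, to -0.055 for LGALS17A without D3 replicate 1 and to 0.093 for KLHDC7B without D28 replicate 3.

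The contrast of D28WO with D28, which differ by withdrawal in their labels, gave the lines opposite signs for KLHDC7B. In U87 KLHDC7B was higher in D28WO by a log2 fold change of 1.83 (SE 0.217, limma adjusted p = 2.9e-04), where 3.11% of all genes were called higher. D28WO holds the largest rise of KLHDC7B in U87, and the gene was chosen by its rise, so the choice may have favoured this call. In U251 KLHDC7B had -0.79 (SE 0.187, adjusted p = 0.00584), which did not pass the threshold of 1, where 8.14% of all genes were called lower. LGALS17A had 0.71 in U87 (SE 0.218, adjusted p = 0.0420) and -0.15 in U251 (SE 0.214, adjusted p = 0.646), neither of them past the threshold. With the D14 libraries left out of the fit, the KLHDC7B values had adjusted p = 7.7e-04 in U87 and 0.00914 in U251, and those of LGALS17A 0.0158 and 0.410.

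**Figure D2:**
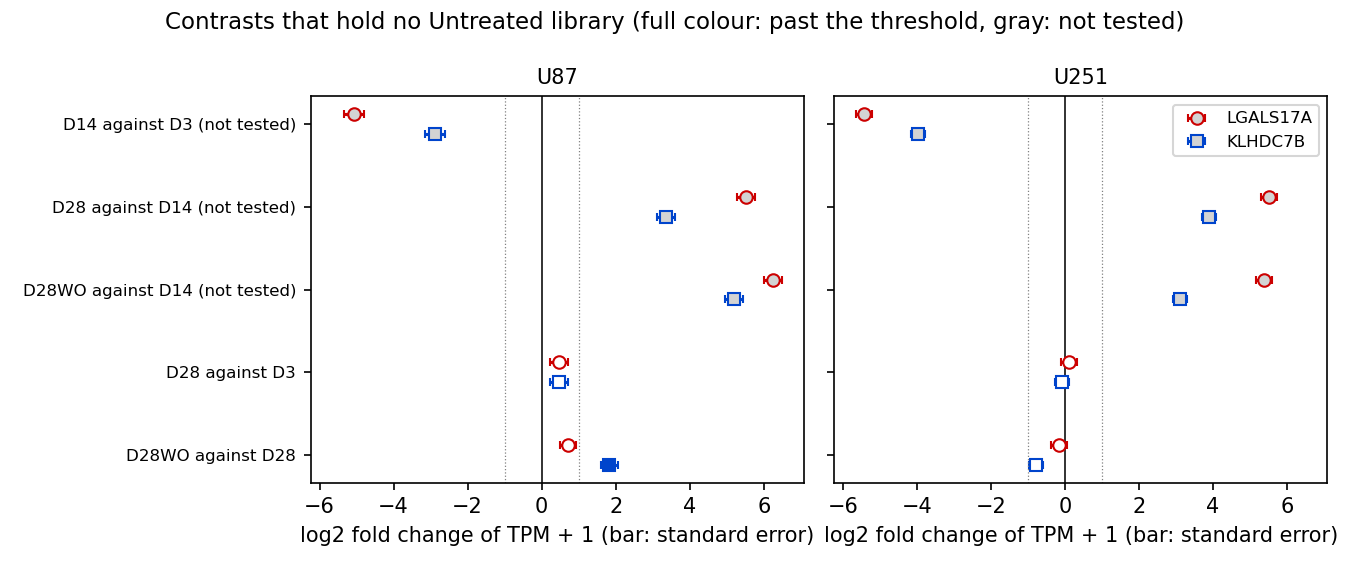
Log2 fold change of TPM + 1 for LGALS17A (circles) and KLHDC7B (squares) in the 5 contrasts without Untreated libraries, in U87 (left) and U251 (right); bars are standard errors, symbols in full colour pass the threshold, white ones do not, gray ones were not tested and dotted lines mark an absolute value of 1. Both genes are lower in D14 than in D3 and higher in D28 and D28WO than in D14, and among the tested contrasts only D28WO against D28 of KLHDC7B in U87 is called, at 1.83.

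Other galectins were compared with Untreated in the same fits. In U87, 9 of 17 galectin family genes passed the filter, and 1, 0, 2 and 2 of them were called higher at D3, D14, D28 and D28WO, with none called lower. The calls were of LGALS9 and LGALS13, which passed the filter through treated groups, so these counts were in part fixed by the filter. Over all U87 genes, 5.85% were called higher and 0.384% lower at D3, 1.89% and 0.209% at D14, 6.77% and 0.611% at D28, and 12.8% and 2.12% at D28WO. These U87 shares depend on the settings, since the D3 calls of 1340 higher and 88 lower became 543 and 279 under quantile normalization, and leaving out 1 library took the D14 calls from 481 to between 92 and 473. An unadjusted limma p under 0.05 was found for 4, 1, 5 and 4 of the 9 U87 galectins at D3, D14, D28 and D28WO. In U251, 12 galectins passed and 4, 1, 4 and 3 were called higher in that order, with none lower. There 8, 5, 9 and 6 of the 12 had an unadjusted limma p under 0.05. Among those called there, LGALS13 and LGALS14 likewise passed through treated groups. Over all U251 genes, 9.72% were called higher and 4.55% lower at D3, 4.72% and 1.04% at D14, 11.9% and 3.35% at D28, and 4.07% and 3.38% at D28WO.

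The median log2 fold change of all genes was itself above 0, at 0.20, 0.15, 0.19 and 0.25 in U87 and at 0.13, 0.096, 0.16 and 0.015 in U251 for D3, D14, D28 and D28WO. The galectin median stood 0.10, -0.15, 0.17 and -0.077 from it in U87, where the D28WO median of 0.17 turned to -0.052 under median-ratio size factors. In U251 it stood 0.23, 0.085, 0.071 and 0.19 from it. LGALS1, LGALS3, LGALS3BP and LGALS8, the abundant members, were called in no group of either line, nor were LGALS2 and LGALSL. Without a call, LGALS1 averaged 1005 TPM in Untreated and 605 TPM in D28WO of U87, and 442 and 252 TPM in Untreated and D3 of U251. LGALS3BP averaged 582 TPM in Untreated and 886 TPM in D28WO of U251. LGALS9B and LGALS9C were tested in U251 alone, without a call, and LGALS7, LGALS7B, LGALS12, LGALS16 and CLC passed the filter in neither line.

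LGALS9, whose product galectin-9 is a ligand of immune receptors, was the galectin called most often. In U87 it averaged 0.0427 TPM in Untreated, 8.01 in D3, 0.109 in D14, 22.2 in D28 and 4.82 in D28WO. It thus passed the filter there through D3, D28 and D28WO, so calls of higher levels were in part fixed by the filter. Its log2 fold change in U87 was 3.00, 0.09, 4.46 and 2.45 (limma adjusted p = 2.0e-04, 0.922, 2.2e-06 and 9.3e-05). In U251 it averaged 3.29 TPM in Untreated and 60.5, 45.3, 98.1 and 48.8 TPM in the treated groups, called higher in all 4, with 3.48 at D14 (SE 0.216, adjusted p = 1.1e-07). LGALS9 at D14 in U251 was thus near its D28WO level, whereas LGALS17A at D14 was at 6.64 TPM against 300.4 TPM. This difference between the genes was not tested.

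LGALS13, which encodes placental protein 13 and lies 71898 bases upstream of LGALS17A in the same cluster, followed a pattern closer to that of LGALS17A. In U251 it was listed at 0 TPM in each Untreated library, between 16.1 and 24.6 TPM in D3, at most 0.904 TPM in D14, between 15.8 and 21.1 TPM in D28 and between 17.03 and 22.2 TPM in D28WO, with calls at D3, D28 and D28WO (adjusted p = 6.3e-09, 7.8e-09 and 1.1e-08). It too passed the filter through those groups, and the calls held without the filter. In U87 it was at 0 in Untreated and D14 and reached at most 5.65 TPM, with calls at D28 and D28WO, the first of which ended in a fit of only the compared groups (adjusted p = 0.0688). LGALS14 was called in U251 with log2 fold changes of 1.85 at D3, 1.14 at D28 and 2.85 at D28WO. It averaged 0.139 TPM in Untreated and 0.210 TPM in D14 and passed the filter through those 3 groups. Calls of higher levels of LGALS14 were therefore in part fixed by the filter. The D28 call of LGALS14 ended when any of several single libraries was left out (adjusted p = 0.152 without D28 replicate 2), as did that of LGALS4 (1.20, adjusted p = 0.0934 without the same library).

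Some annotated genes close to LGALS17A had high levels in the same groups of U251. ENSG00000226025, a transcribed pseudogene, and ENSG00000269460, a long noncoding RNA, overlap LGALS17A on the same strand by 2716 and 1130 bases, so reads from the shared stretches cannot be told apart. ENSG00000269460 was listed at 0 TPM in Untreated and D14 of U251 and averaged 71.5 TPM in D3, 97.7 in D28 and 74.1 in D28WO. ENSG00000268088, a transcribed pseudogene 7552 bases downstream without overlap, averaged 0 TPM in Untreated, 76.0 in D3, 2.63 in D14, 99.96 in D28 and 73.4 in D28WO. ENSG00000226025 averaged 0.540 TPM in Untreated, 52.8 in D3, 0.0206 in D14, 72.5 in D28 and 25.9 in D28WO, so at D14 neither overlapping gene was above Untreated as LGALS17A was. Of the 10 neighbours, 5 on each side, 5 passed the filter in U251, and the others, LGALS16 and RPS29P27 among them, were at 0 in each library. Those 5 averaged at most 0.540 TPM in Untreated and passed through treated groups, so calls of higher levels were in part fixed by the filter and their number is not given. The D14 call of ENSG00000268088 (adjusted p = 0.0358) ended in several fits without 1 library, and the D3 call of ENSG00000290598 (1.04) ended without D3 replicate 2 (0.98). In U87, 3 passed the filter, each listed at 0 TPM in the Untreated and D14 libraries.

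The relatives of KLHDC7B were compared with Untreated in the same fits. KLHDC2, KLHDC3, KLHDC4, KLHDC8B and KLHDC10, among them substrate receptors of ubiquitin ligases, averaged between 19.5 and 93.7 TPM in each group of both lines. Of 9 KLHDC genes, 6 were tested in U87 and none was called by limma in any group, with 1, 2, 3 and 3 at an unadjusted p under 0.05. A count near 0 is also what the shares of all U87 genes called higher, 1.89% to 12.8%, would give for 6 genes. Their median log2 fold change in U87 was 0.15, 0.24, 0.12 and 0.15, and the D3, D28 and D28WO medians turned negative under quantile normalization and under median-ratio size factors, to as low as -0.18, -0.060 and -0.076. In U251, 8 were tested and none was called higher. For 8 genes a count near 0 is also what the shares of all U251 genes called higher, 4.07% to 11.9%, would give. KLHDC9 alone was called lower, at D3, with -1.16 (SE 0.259, limma adjusted p = 0.00260), where 4.55% of all genes were called lower. It missed the threshold without Untreated replicate 3, at -0.99. The U251 medians were -0.24, -0.057, 0.0071 and -0.079, and that of D28 turned negative under 6 alternatives, down to -0.21. Unadjusted limma p under 0.05 were found for 7, 4, 5 and 2 of the 8, and KLHDC1 and KLHDC7A were among those without a call.

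**Figure D3:**
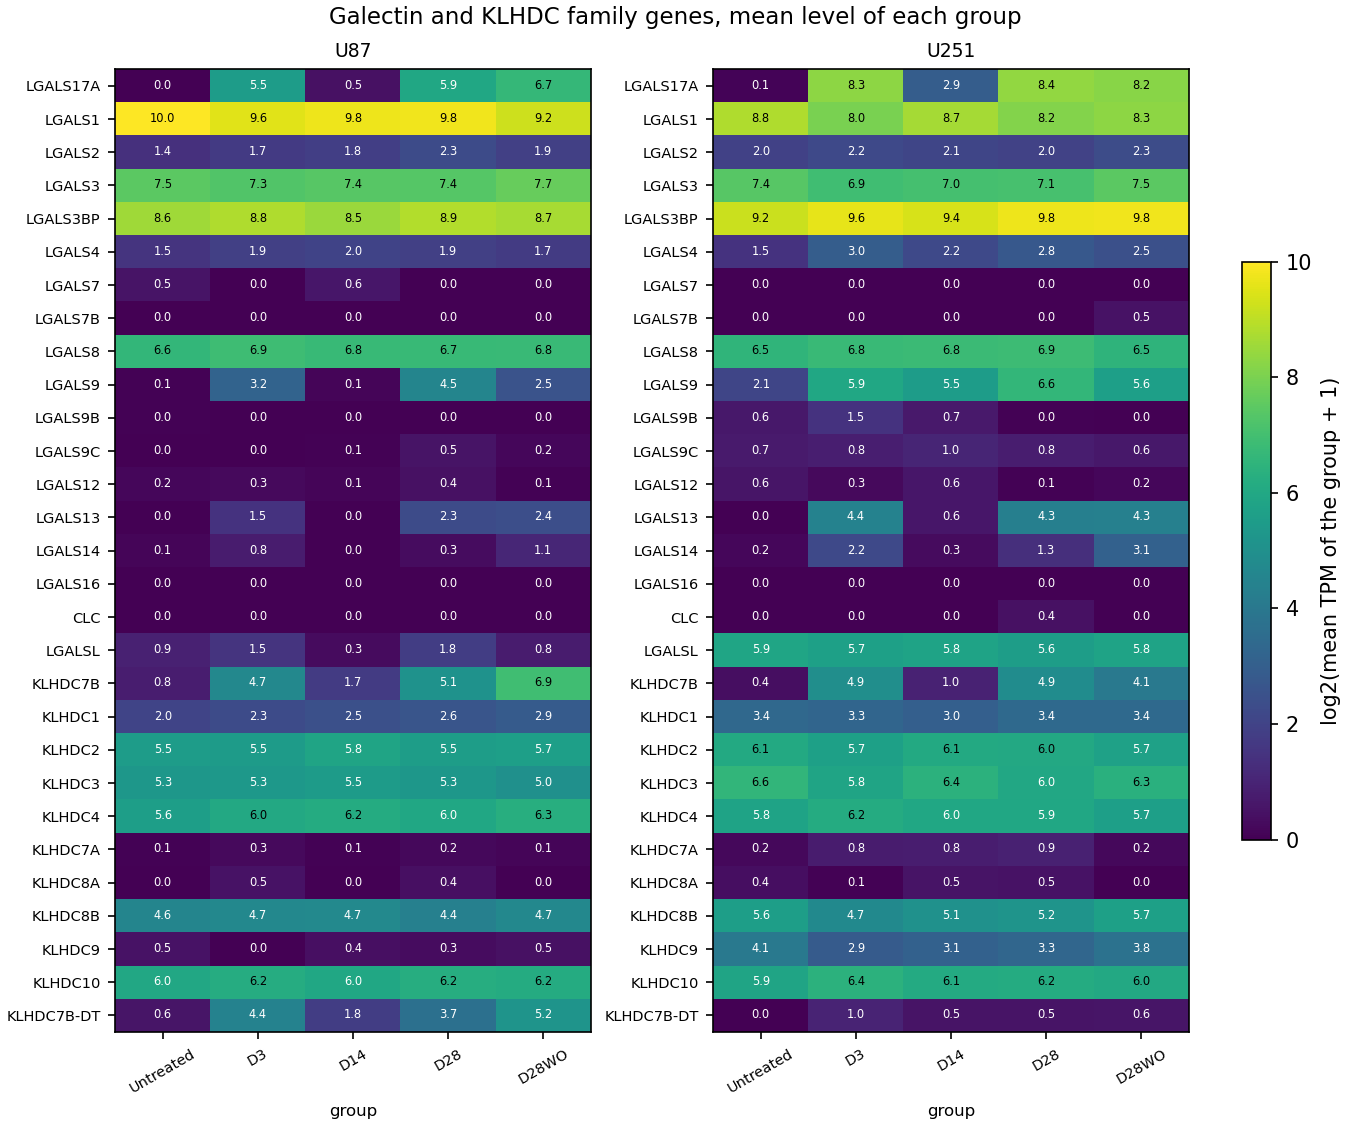
Mean level of the galectin and KLHDC family genes in each group of U87 (left) and U251 (right), as log2 of mean TPM + 1, printed in each cell and coloured from 0 to 10. LGALS17A, LGALS13 and KLHDC7B are low in Untreated and D14 and higher in D3, D28 and D28WO, whereas LGALS9 in U251 is also high in D14, at 45.3 TPM, and LGALS1, LGALS3BP and LGALS8 are high in each group.

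KLHDC7B-DT, the noncoding transcript annotated divergent to KLHDC7B, had a like pattern in U87. It was at 0.996, 0 and 0.436 TPM in Untreated, at 20.8 and 20.2 TPM in D3, at 3.02 and 2.05 TPM in D14, at 18.5, 14.7 and 2.59 TPM in D28, and at 40.5, 35.0 and 30.4 TPM in D28WO. D28WO was again highest, and 1 D28 library lay in the D14 range. KLHDC7B-DT averaged 0.477 TPM in Untreated and passed the filter through treated groups, so calls of higher levels were in part fixed by the filter. It was called above Untreated at D3, D28 and D28WO, with log2 fold changes of 3.92, 2.86 and 4.67 (limma adjusted p = 9.7e-04, 0.00249 and 2.9e-05), and 1.30 at D14 was not called (adjusted p = 0.200). The D28 call ended in a fit of only the compared groups, with adjusted p = 0.0605. In U251 it did not exceed 1.28 TPM in any library and did not pass the filter. GENCODE places KLHDC7B-DT at chr22:50542305-50542906, 2993 bases from KLHDC7B and without overlap. RefSeq places another start of this transcript inside KLHDC7B on the opposite strand. The strand setting of the counting was not stated, so under the RefSeq placement the genes may share reads.

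Of the 10 genes around KLHDC7B, all 10 were tested in U87, and 6, 2, 7 and 8 were called higher at D3, D14, D28 and D28WO. The U87 counts at D3, D28 and D28WO include KLHDC7B-DT, which passed the filter through treated groups. Those counts were therefore in part fixed by the filter. Each U87 count also includes both CPT1B and CHKB-CPT1B, which may share reads. In U251, 8 were tested and 3, 0, 3 and 1 were called higher, with 4 at an unadjusted limma p under 0.05 at D14, and none was called lower in either line. The shares of all genes called higher were 5.85%, 1.89%, 6.77% and 12.8% in U87 and 9.72%, 4.72%, 11.9% and 4.07% in U251, so the U251 counts at D14 and D28WO were close to them. TYMP, which encodes thymidine phosphorylase, averaged 10.1 TPM in Untreated U87, 76.2 in D3, 11.7 in D14, 48.3 in D28 and 118 in D28WO. Its log2 fold change was 2.79, 0.21, 2.22 and 3.49 in U87 and 2.42, 0.91, 2.07 and 2.31 in U251, with a call in each line at D3, D28 and D28WO, and the U87 D3 call ended in a fit of only the compared groups. CPT1B, a mitochondrial fatty acid carnitine transferase, was called in U87 at each time, at 1.80, 1.74, 1.26 and 2.13, and the first 3 of these calls ended when single libraries were left out. CHKB-CPT1B, the other gene called at D14 in U87, overlaps nearly all of CPT1B on the same strand, so these genes may share reads, and its D14 call (adjusted p = 0.0356) ended in the same way. SYCE3 and ENSG00000273272 were called in U87 at D3, D28 and D28WO, and CHKB was called in neither line.

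**Figure D4:**
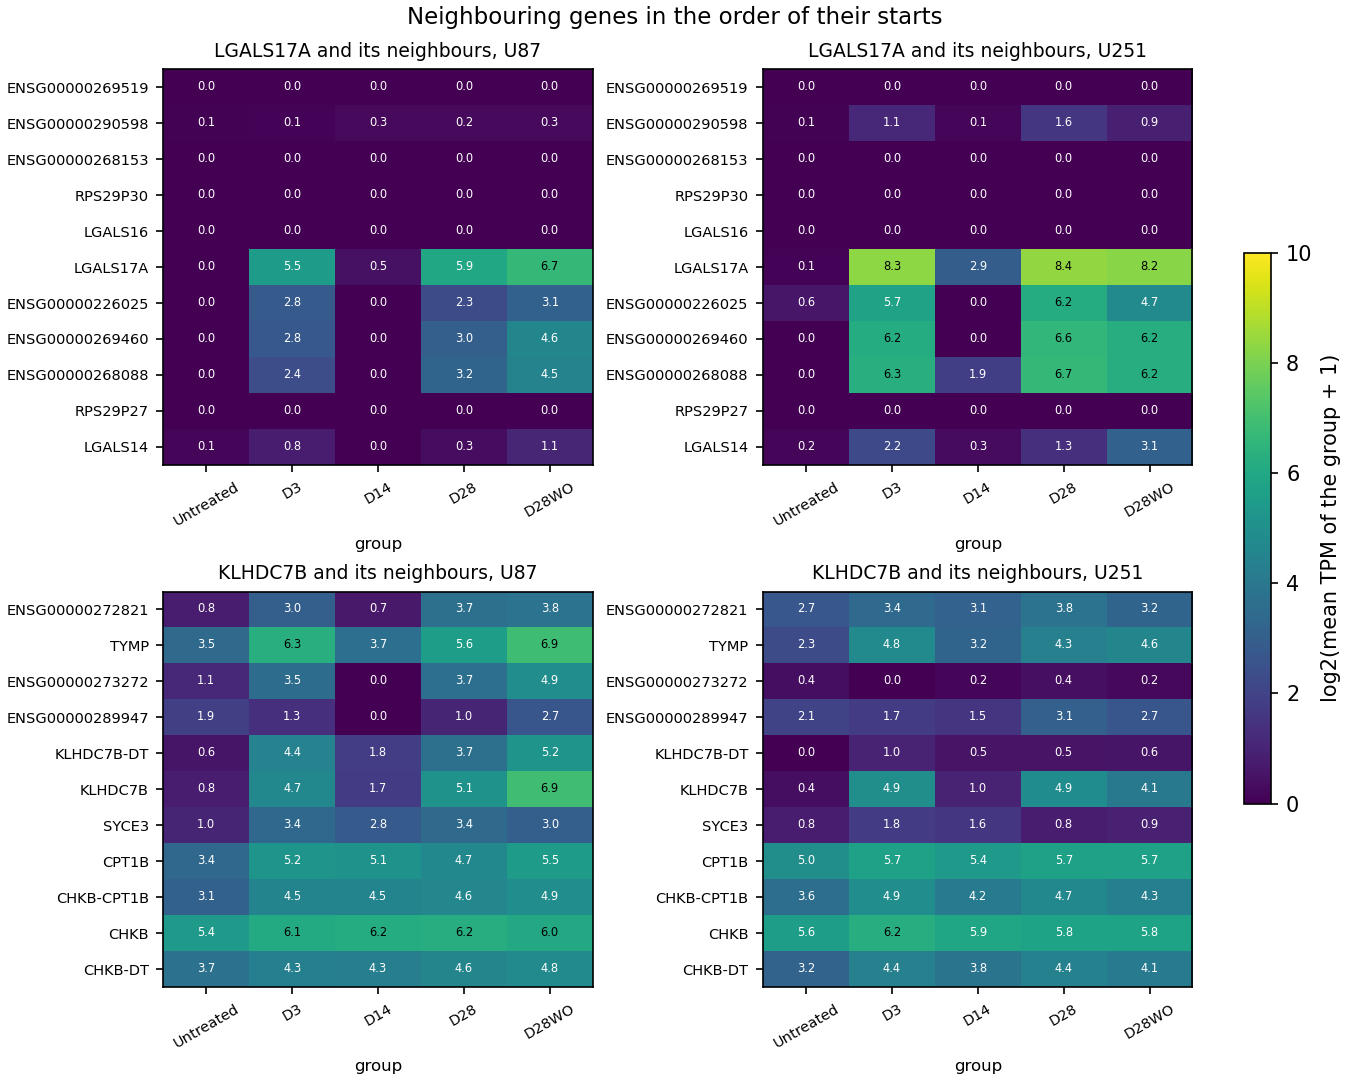
Mean level of the 5 annotated genes on each side of LGALS17A (top) and of KLHDC7B (bottom), in the order of their starts, as log2 of mean TPM + 1 in each group of U87 (left) and U251 (right). In U251 ENSG00000226025, ENSG00000269460 and ENSG00000268088 are high in D3, D28 and D28WO together with LGALS17A, and TYMP is higher in those groups than in Untreated in both lines.

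The interferon pathway genes had different counts in the lines at D14, side by side and without a test between lines. Of 9 signalling genes, 8 were tested in each line and IRF8 was not. In U87, 3 were called higher at D3 (STAT2, IRF1 and IRF9), 4 at D28 and D28WO (JAK2 in addition), and 0 at D14, where 4 had an unadjusted limma p under 0.05. Over all U87 genes 5.85%, 1.89%, 6.77% and 12.8% were called higher at D3, D14, D28 and D28WO, so the D14 count was near that share. The median of the signalling genes stood 0.65, 0.057, 0.86 and 0.87 above that of all genes in the same order. In U251, 5, 4, 5 and 5 were called higher (STAT2, IRF1, IRF9, SOCS1 and, except at D14, JAK2), and the median stood 1.40, 0.69, 1.37 and 1.69 above. The shares of all U251 genes called higher were 9.72%, 4.72%, 11.9% and 4.07%. The D14 call of STAT2, at 1.02, missed the threshold without D14 replicate 1 (0.98) and under quantile normalization (0.97). IRF1 averaged 133.1 TPM in Untreated and 121.9 TPM in D14 of U87, against 141.1 and 300.3 TPM in U251. The receptor genes IFNGR1 and IFNGR2 and the kinase gene JAK1 were called in no group. All 8 tested signalling genes, these included, had an unadjusted limma p under 0.05 at D28 in U87 and at D3 in U251. IFNGR2 averaged 62.4 TPM in Untreated and 43.7 TPM in D28 of U87, and 98.1 and 60.3 TPM in Untreated and D3 of U251. IFNGR1 averaged 36.5 and 48.6 TPM in the same U87 groups, and 61.9 and 70.8 TPM in those of U251.

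The summed TPM of the IFN-γ target genes at D14 was near that of Untreated in U87 and above it in U251. Of the 21, which are GBP1, GBP2, GBP4, GBP5, CXCL9, CXCL10, CXCL11, IDO1, CIITA, HLA-DRA, CD74, CD274, TAP1, PSMB9, WARS1, BATF2, APOL6, ETV7, UBD, IFI30 and SECTM1, U87 had 16, 1, 17 and 17 called higher at D3, D14, D28 and D28WO. Over all U87 genes 5.85%, 1.89%, 6.77% and 12.8% were called higher, so the D14 count was near that share. Some targets, such as IDO1 in U87, passed the filter through treated groups. The target median stood 1.87, -0.052, 1.96 and 2.26 from that of all genes, and the D14 median itself, 0.096, turned to -0.00088 under quantile normalization. U251 had 21, 16, 21 and 21 called higher, next to 9.72%, 4.72%, 11.9% and 4.07% over all genes. The U251 target medians stood 3.90, 1.49, 4.33 and 4.04 above that of all genes. IDO1, which degrades tryptophan, averaged 0.0795, 83.6, 0, 110.9 and 136 TPM over the 5 groups of U87 from Untreated to D28WO, and 7.97, 346, 45.1, 401 and 302 TPM in U251. Like LGALS17A and KLHDC7B, the targets of U251 were lower in D14 than in D3, with sums of 1499 and 5900 TPM, and CXCL9 averaged 0.548 TPM in D14 and 94.9 TPM in D3. At D14 in U251 LGALS17A, at 2.79, lay above the median log2 fold change of the targets from Untreated, 1.59, and KLHDC7B, at 0.59, lay below it.

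Type I interferon-stimulated genes, which carry the antiviral response, were above Untreated at D14 in U251. Their summed TPM there was between 2469 and 2528 in D14, below the 2708 to 3133 of D3. All 20 were called higher in each of the 4 treated groups of U251, with medians 2.58, 2.31, 2.69 and 3.01 above that of all genes. Over all U251 genes 9.72%, 4.72%, 11.9% and 4.07% were called higher at D3, D14, D28 and D28WO. The 20 were IFIT1, IFIT2, IFIT3, MX1, MX2, OAS1, OAS2, OAS3, OASL, ISG15, IFI6, IFI27, IFI44, IFI44L, RSAD2, CMPK2, HERC5, USP18, IFIH1 and RIGI. In U87, 12, 3, 13 and 12 were called higher, with medians 1.26, 0.12, 1.38 and 1.09 above. The shares of all U87 genes called higher were 5.85%, 1.89%, 6.77% and 12.8%. RSAD2 in U87 and CMPK2 in U251 passed the filter through treated groups. Over all the lists, the 4 genes called at D14 in U87 were GBP5, MX2, OAS1 and OAS2, and 2 were called without D14 replicate 2 or without D14 replicate 3, 1 under quantile normalization and 0 in a limma fit of only the compared groups. IFI27 averaged 1.90, 72.4, 3.84, 86.7 and 103 TPM over the 5 groups of U87 from Untreated to D28WO, and 2.88, 145, 186, 186 and 279 TPM in U251. In U251 IFI27 was thus as high at D14 as at D28, which LGALS17A and KLHDC7B were not. The summed TPM of the 20 genes was itself lower in D14 (2469 to 2528) than in D28 (3558 to 3805) of U251. In these bulk cultures, fewer cells with an RNA and less of it per cell cannot be told apart.

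**Figure D5:**
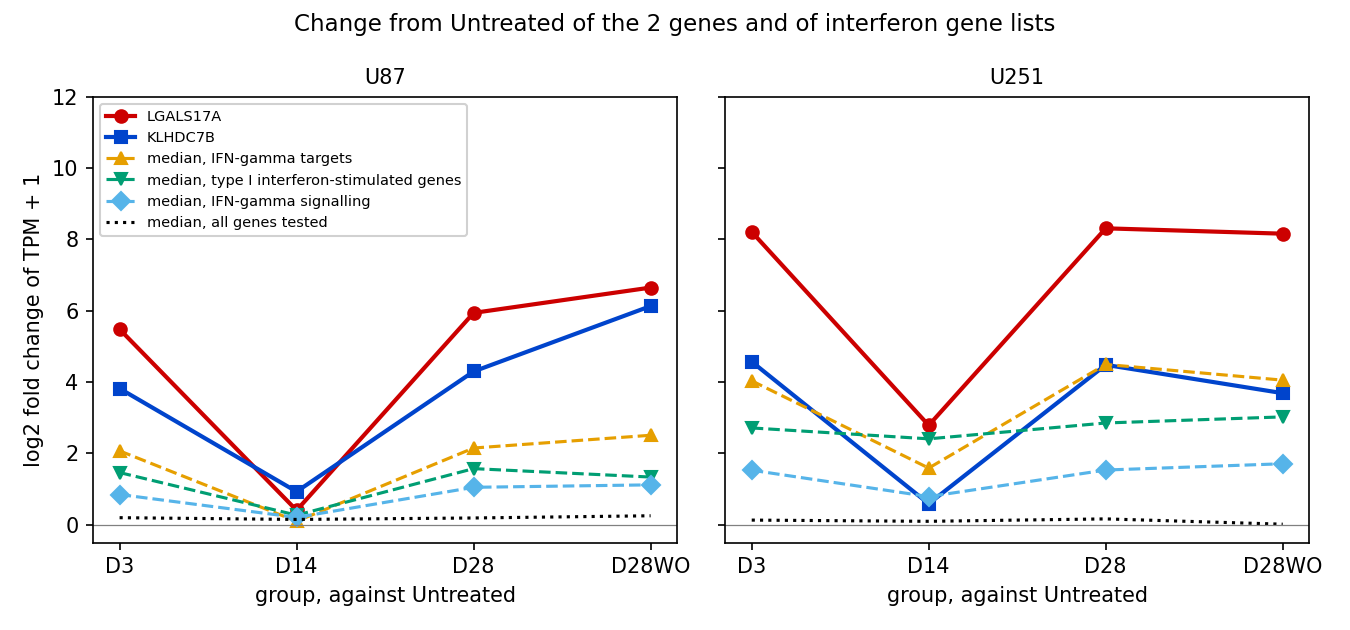
Log2 fold change of TPM + 1 from Untreated for LGALS17A, KLHDC7B and the medians of the interferon gene lists and of all genes tested, at D3, D14, D28 and D28WO in U87 (left) and U251 (right). At D14 all lines of U87 lie between 0 and 1, while in U251 the type I interferon-stimulated genes are at 2.41, LGALS17A is at 2.79 and KLHDC7B at 0.59.

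The genes most like each of the 2 were found among 20473 genes tested in both lines, by the mean absolute difference of the 8 log2 fold changes from Untreated, 4 in each line. For LGALS17A these were GBP1P1, a guanylate-binding protein pseudogene, at 0.948, then IDO1 and CXCL10 at 1.46, IFI27 at 1.69 and HLA-DOA at 1.78, next to a median of 5.60 over all genes. GBP1P1 averaged 0.263, 191, 17.7, 171 and 191 TPM over the 5 groups of U251 from Untreated to D28WO, and 0.122, 25.5, 0.543, 30.3 and 42.7 TPM in U87. For KLHDC7B they were GJD3, a gap junction protein gene, at 0.494, USP30-AS1 at 0.653, the complement gene C2 at 0.692, GBP4 at 0.700 and ETV7 at 0.717, next to a median of 3.41. GJD3 averaged 0.311, 17.1, 0.527, 22.8 and 36.0 TPM in U87 and 0.234, 27.5, 0.898, 41.3 and 33.0 TPM in U251. LGALS17A ranked 324 by likeness to KLHDC7B, and KLHDC7B ranked 20 by likeness to LGALS17A, at a difference of 2.31. This ranking describes levels and was not tested. It uses the rise by which the 2 genes were chosen, so the medians over all genes mostly reflect the size of that rise.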

How the data were processed

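The deposited tables give the authors' TPM values from reads aligned to GRCh38 with STAR and counted with featureCounts, and the tables give no read totals, so the depth of each library is unknown. Of the per-sample columns, 2 of the U87 table were used in no step because they carry the same name. Within each line, the genes averaging 0.5 TPM or more were fitted with limma 3.58.1 in R 4.3.3 on log2(TPM + 1), with all 5 groups in 1 model, a trended prior and Benjamini-Hochberg adjustment over all genes tested. Positions come from GENCODE 44. Named genes are LGALS17A, KLHDC7B, the detected genes of the lists, the 5 annotated genes on each side of each, and the 5 genes most like each, and 1 gene of the signalling list is not reported here. Contrasts of the 2 genes with Untreated or D14 are given without a test. The members and lists were chosen with earlier results of these data known. Alternatives changed the pseudocount, the filter, the normalization, the weights, the groups fitted, the replicate block and single libraries, and fits without the D14 or D28WO libraries were added after seeing the data.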

Additional observations from a re-analysis of the deposited data

Results flagged for a closer look

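KLHDC7B differed in sign between the lines in D28WO against D28. Its log2 fold change was 1.83 in U87, which was called, and -0.79 in U251, which did not pass the threshold of 1. The U87 D28WO level is part of the rise by which KLHDC7B was chosen, so the choice may have favoured that call. The summed TPM of the IFN-γ targets in U87 D28WO, 4140.05, was not below that of D28, 3899, although D28WO was labelled as withdrawn. The sum of the type I interferon-stimulated genes in U87 was lower in D28WO (1011 to 1054) than in D28 (1109 to 1196). In U251 the target sum was also lower in D28WO (5682 to 5815) than in D28 (6664 to 6756).

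IFI44, an interferon-stimulated gene, differed in sign between the lines at D14 and at D28WO. Its log2 fold change from Untreated was -0.15 in U87 and 1.94 in U251 at D14, and -0.26 in U87 and 2.27 in U251 at D28WO. RIGI, a sensor of viral RNA, had -0.32 in U87 and 1.86 in U251 at D14. These items stood out among 318 comparisons of the lines because each library of a group lay on the opposite side of its Untreated or D28 reference in the other line, and the differences between lines were not tested.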

How the results depend on the processing

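The 8 tested contrasts of LGALS17A and KLHDC7B, D28 against D3 and D28WO against D28 in each line, gave 122 values under alternatives, and 120 kept direction and side of the threshold. The others turned near 0. In U251 D28 against D3, LGALS17A ran from -0.055 without D3 replicate 1 to 0.22 without D3 replicate 2, around 0.10. KLHDC7B ran from -0.18 without D28 replicate 1 to 0.093 without D28 replicate 3, around -0.088.

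The contrasts with D14, given without a test, kept their direction in each alternative and varied in size. A pseudocount of 0.1 gave, for LGALS17A and KLHDC7B in U87, -7.23 and -3.30 for D14 against D3, 7.69 and 3.79 for D28 against D14, and 8.41 and 5.65 for D28WO against D14. In U251 it gave -4.84 for KLHDC7B D14 against D3, 5.72 and 4.75 for D28 against D14, and 5.57 and 3.92 for D28WO against D14. Quantile normalization gave 5.66 for LGALS17A D28 against D14 and 3.28 for KLHDC7B D28WO against D14 in U251, where LGALS17A D28WO against D14 was 5.42 under median-ratio size factors and 5.32 with array weights. With 1 library left out, KLHDC7B D14 against D3 in U87 ran from -3.22 to -2.56, LGALS17A D28 against D14 from 5.13 to 5.94 in U87 and 5.20 to 5.75 in U251, LGALS17A D28WO against D14 from 5.84 to 6.65 in U87 and 5.05 to 5.60 in U251, and KLHDC7B D28WO against D14 in U87 from 5.04 to 5.36.

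The differences from Untreated depend on the pseudocount, since the Untreated levels are near 0. At 0.1 those of LGALS17A in U251 were 11.1, 5.49, 11.2 and 11.1 at D3, D14, D28 and D28WO. KLHDC7B at D14 in U251, 0.59, ran from 0.19 under quantile normalization to 1.54 at a pseudocount of 0.1.

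The number of listed companion genes called in U87 at D14 was 4, and it was 1 under quantile normalization, 0 in a fit of only the compared groups, 3 with a replicate block and 2 to 5 with 1 library left out. In the other groups leaving out 1 library gave 33 to 34 (D3, 33 in the full fit), 35 to 38 (D28, 37) and 35 to 39 (D28WO, 36) in U87. In U251 it gave 50 to 51 (D3, 51), 39 to 41 (D14, 41), 48 to 50 (D28, 50) and 49 to 50 (D28WO, 49).

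Counts over all genes moved most in U87. At D3 1428 were called, and 822 under quantile normalization and 626 with only the compared groups. At D14 the count of 481 became 269 without the filter, 213 under quantile normalization, 311 under median-ratio size factors, 51 with only the compared groups and 173 without the D28WO libraries. At D28 1692 became 1052 and 1113 under quantile normalization and with only the compared groups. With only the compared groups, D28 against D3 fell from 19 to 0, and in U251 D28 against D3 fell from 756 to 458. D28 against D3 in U87 rose to 30 without the filter and to 34 under quantile normalization. Leaving out 1 library gave 682 to 1422 at D3, 92 to 473 at D14 and 12 to 47 for D28 against D3 in U87.

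Quantile normalization also moved the balance of higher and lower calls, since it removes a shift common to all genes. In U87 D3 the split of 1340 and 88 became 543 and 279, and in D28WO 2933 and 485 became 1332 and 1226. In U251 D3 2301 and 1077 became 1474 and 1513. The cause of the shift was not tested.

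A block of replicate number in the model left the 8 tested member contrasts on the same side of the threshold. Deviations from the group mean correlated between libraries of the same number at -0.058 to 0.047 in U87 and -0.037 to 0.048 in U251, so the numbers did not pair libraries.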
